A study of Caenorhabditis elegans with 2 samples.

Results

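The centromere and outer kinetochore genes of Caenorhabditis elegans were examined for binding by EFL-1, a transcription factor of the E2F family. They are the 10 genes hcp-1, hcp-2, hcp-3, hcp-4, knl-1, knl-2, knl-3, ndc-80, him-10 and mis-12, chosen by name, of 19973 nuclear protein-coding genes. There was 1 group of 2 biological replicates, both of strain YL479 and both taken from whole hermaphrodites at the young adult stage. The labels call the animals transgenic for EFL-1 with a GFP-FLAG tag at its C terminus, and also describe an insertion aimed at efl-1. Whether the fusion replaces the native gene or adds a copy, and which promoter drives it, is unknown here. Chromatin was sonicated and pulled down with an antibody against GFP, while the antibody field of the labels reads efl-1. Whole animals mix germline and somatic nuclei, so the tissue in which a site was bound cannot be told from these data. The files list peaks, each with its coordinates, its summit and the authors' signal value, and hold no read counts, so depth is unknown. A peak is called reproducible here where it is in the authors' optimal list, thresholded by the irreproducible discovery rate. A gene counts as bound where the summit of such a peak lay within 500 bp of an annotated protein-coding start.

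The kinetochore joins chromosomes to spindle microtubules. Worm chromosomes are holocentric, so it forms along their whole length rather than at 1 constriction. It stands on nucleosomes that carry HCP-3, the worm CENP-A, loaded with the help of KNL-2, and on HCP-4, the worm CENP-C. KNL-1, the MIS-12 complex and the NDC-80 complex make up the KMN network, the outer layer that grips microtubules. HCP-1 and HCP-2 are CENP-F-like proteins of the outer kinetochore. E2F factors work with a DP partner and, in the DREAM complex, with LIN-54, which binds the cell cycle gene homology region (CHR). E2F factors and DREAM are best known for controlling genes of the dividing cell.

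EFL-1 was bound at 9 of the 10 genes, against 8.86% of all nuclear protein-coding genes. The exception was hcp-4, whose strong peak lay 679 bp upstream of its start. The signal value of the 9 peaks ran from 48.1 at him-10 to 576 at hcp-1, an 11.97-fold range. Their median was 105, against 91.0 for all 1386 reproducible peaks near starts. All 10 genes had a reproducible peak within 1000 bp, where 11.3% of protein-coding genes had one. Since the genes were named with earlier results of these data known, the shares are given as descriptions without a test.

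Sequences around the summits are printed for the sites with an E2F match and, as a site without one, for the weaker peak of hcp-3. Letters were searched on both strands within 100 bp of each summit. The E2F sequence was any of TTTCCCGC, TTTCGCGC, TTTGCCGC and TTTGGCGC, its shorter form lacks the first T, and the CHR sequence was TTCGAA or TTTGAA. The windows reach 50 bp to each side of the summit in build ce11 (WBcel235, RefSeq assembly) and read 5′ to 3′ on the strand of the gene. Capitals mark E2F and CHR matches, with an E2F match on the other strand reading as its reverse complement. For knl-3 and him-10, whose summits lay in an untranslated exon of a neighbouring gene, only 30 bases around the E2F match are shown.
hcp-1 (chrV:6593853-6593953, plus strand): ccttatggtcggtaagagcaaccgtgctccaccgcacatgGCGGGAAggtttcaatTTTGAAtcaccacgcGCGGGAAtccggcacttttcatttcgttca
hcp-2 (chrV:9645643-9645743, plus strand): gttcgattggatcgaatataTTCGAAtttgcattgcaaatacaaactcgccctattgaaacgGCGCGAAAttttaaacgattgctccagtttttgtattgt
hcp-3, site 632 bp upstream (chrIII:9617052-9617152, minus strand): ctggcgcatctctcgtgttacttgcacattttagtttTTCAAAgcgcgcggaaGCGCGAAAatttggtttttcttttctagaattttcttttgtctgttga
hcp-3, site 148 bp upstream, no match in the window (chrIII:9616568-9616668, minus strand): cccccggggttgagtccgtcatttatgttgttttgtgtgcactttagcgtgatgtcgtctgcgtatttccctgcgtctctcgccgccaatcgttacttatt
knl-1 (chrIII:8250430-8250530, plus strand): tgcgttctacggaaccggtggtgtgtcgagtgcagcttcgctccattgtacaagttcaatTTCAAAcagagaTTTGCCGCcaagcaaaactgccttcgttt
knl-3 (chrV:1868801-1868830, plus strand): acggggTTGGCGCGGCAAAttaaccccgcg
ndc-80 (chrIV:10085841-10085941, plus strand): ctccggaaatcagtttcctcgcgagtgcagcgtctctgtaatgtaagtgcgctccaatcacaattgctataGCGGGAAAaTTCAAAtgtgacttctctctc
him-10 (chrIII:5803152-5803181, plus strand): atgtcacatgtTTTGGCGCgctcttcggcg

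The 8-letter E2F sequence stood at the peaks of 5 bound genes, hcp-2, knl-1, knl-3, ndc-80 and him-10. It was in 17.2% of all nuclear reproducible peaks, in 264 of the 1386 near starts, and in 4.55% of pooled candidates outside the reproducible peaks. The KMN genes with this sequence did not all hold the same version: it was TTTGCCGC at knl-1 and knl-3, TTTCCCGC at ndc-80 and TTTGGCGC at him-10. The shorter form was also found at hcp-1, which held 2 copies of TTCCCGC, and at knl-2, so that 7 of the 9 peaks had it, against 30.7% of all reproducible peaks, 481 of the 1386 near starts and 8.94% of the other candidates. Neither mis-12 nor the peak of hcp-3 nearest to its start had any of these letters within 100 bp. Windows of knl-2, mis-12 and hcp-4, all on chromosome I, are not printed. At knl-3 a TTGGCGC overlapped the 8-letter match on the opposite strand, which gives the longer run of capitals printed for it.

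The CHR sequence was found at all 9 peaks, but it is frequent, being in 56.4% of all reproducible peaks, 856 of the 1386 near starts and 53.6% of candidates outside the reproducible peaks. Within 50 bp of the summit, a window for which no share over all peaks is given, it was at 8 of the 9, hcp-3 being the one without it. Where the 8-letter E2F sequence and a CHR stood together, their centres were 8 bp apart at ndc-80, 13 bp at knl-1, 20 bp at him-10, 21 bp at knl-3 and 43 bp at hcp-2. At hcp-1 a CHR lay between the 2 short E2F sequences, 15.5 bp from the centre of each. The median spacing at the 5 peaks was 20 bp, against 22.5 bp over the 186 peaks near starts that held both and 31 bp over 724 other candidates that did. It was within 25 bp at 4 of the 5 peaks, and in 52.7% of the 186. All 5 matches lay between the summit and the gene start, 13.5 to 25.5 bp from the summit. Of these 5 peaks 4, all but that of knl-1, were shared with a gene on the other strand, so the side depends on the gene a peak is assigned to. Over all single-gene reproducible peaks more than 100 bp upstream with the 8-letter sequence, 76 of 145 (52.4%) had it on that side.

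**Figure D1:**
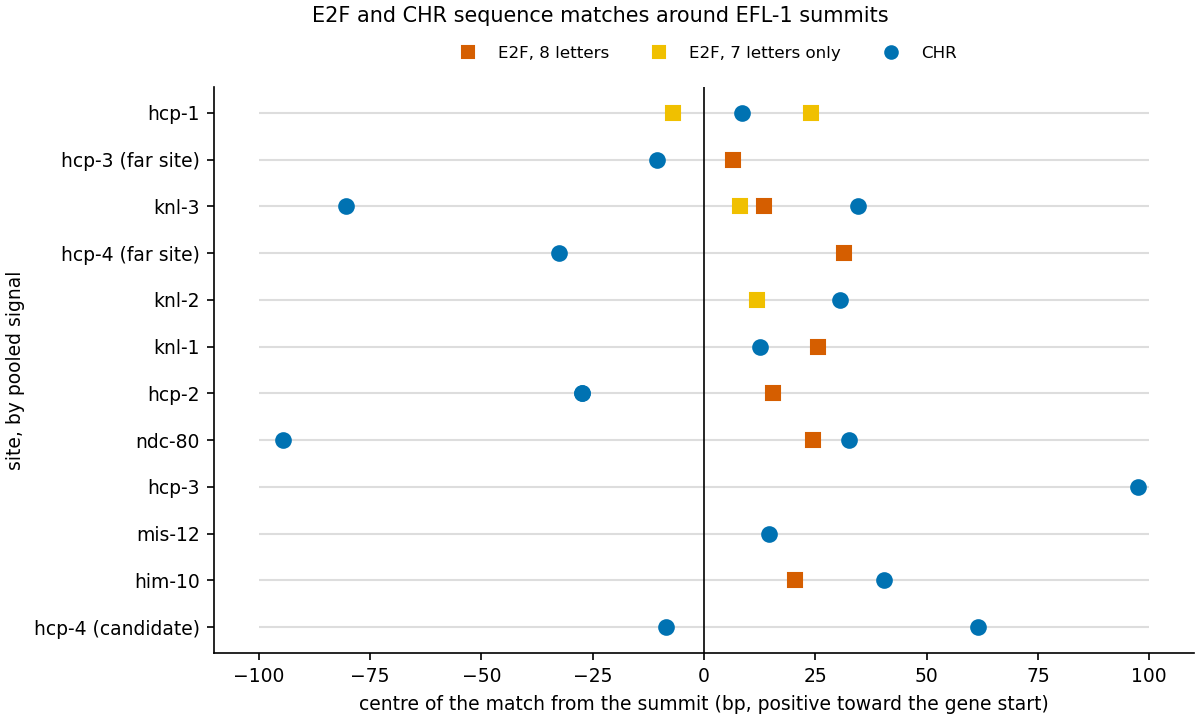
Positions of E2F and CHR sequence matches (x axis, bp from the summit to the centre of the match, positive toward the gene start) at each site of the 10 genes, ordered by pooled signal (y axis). The E2F matches of all 5 bound genes with the 8-letter sequence lie to the right of the summit, and the CHR matches lie on both sides.

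Among the centromere genes, hcp-3 and hcp-4 shared a layout in which the strongest peak lay well upstream. The hcp-3 gene, which encodes the centromeric histone H3 variant CENP-A, lies on chromosome III from 9615306 to 9616470 on the minus strand. The peak within 500 bp of the start spanned 9616480 to 9616755, with the summit 148 bp upstream of the start in intergenic sequence. The signal value there was 75.3 pooled, and 53.4 and 22.8 in replicates 1 and 2. A peak at 9616993 to 9617224, with its summit 632 bp upstream, was far stronger, at 513 pooled, and 293 and 221 in replicates 1 and 2. It ranked 24 among the 2179 nuclear reproducible peaks, whereas the nearer one ranked 1167. No other protein-coding gene started closer to it than hcp-3, and the next gene upstream, hlh-11 on the other strand, started 3241 bp from the hcp-3 start. The strong site held the 8-letter E2F sequence 6.5 bp from the summit, with a CHR 17 bp from it, and the nearer site held no E2F sequence.

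The hcp-4 gene encodes the worm CENP-C, which reads CENP-A chromatin, and lies on chromosome I from 3862833 to 3865938 on the minus strand. Within 500 bp of its start the highest pooled candidate had a signal value of 24.9, with 16.2 in replicate 1 and 11.0 in replicate 2. That is below 45.6, the lowest nuclear reproducible signal, and the candidate matched in replicate 2 had its summit 144 bp away. A reproducible peak at 3866515 to 3866717, with its summit 679 bp upstream, had a signal value of 346 pooled, and 215 and 130.1 in replicates 1 and 2. It ranked 86 pooled, and 93 and 78 in replicates 1 and 2. Here too hcp-4 had the nearest protein-coding start, and the 8-letter E2F sequence stood 31.5 bp from the summit. The gene is therefore counted as unbound by the distance chosen, although a strong peak lay in the intergenic sequence before it. RefSeq and Ensembl gave the same starts for all 10 genes.

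The third centromere gene, knl-2, had its peak on the start itself. KNL-2 is needed to load CENP-A onto chromatin, and its gene lies on chromosome I from 6460878 to 6464286 on the plus strand. The peak spanned 6460759 to 6461034, and the summit was 19 bp downstream of the start, in the untranslated part of the first exon. It was the only one of the 9 peaks with its summit downstream. The signal value was 129.6 pooled, and 78.7 and 49.3 in replicates 1 and 2, and the rank was 547, 591 and 541 in turn. A short E2F sequence stood 12 bp beyond the summit.

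**Figure D2:**
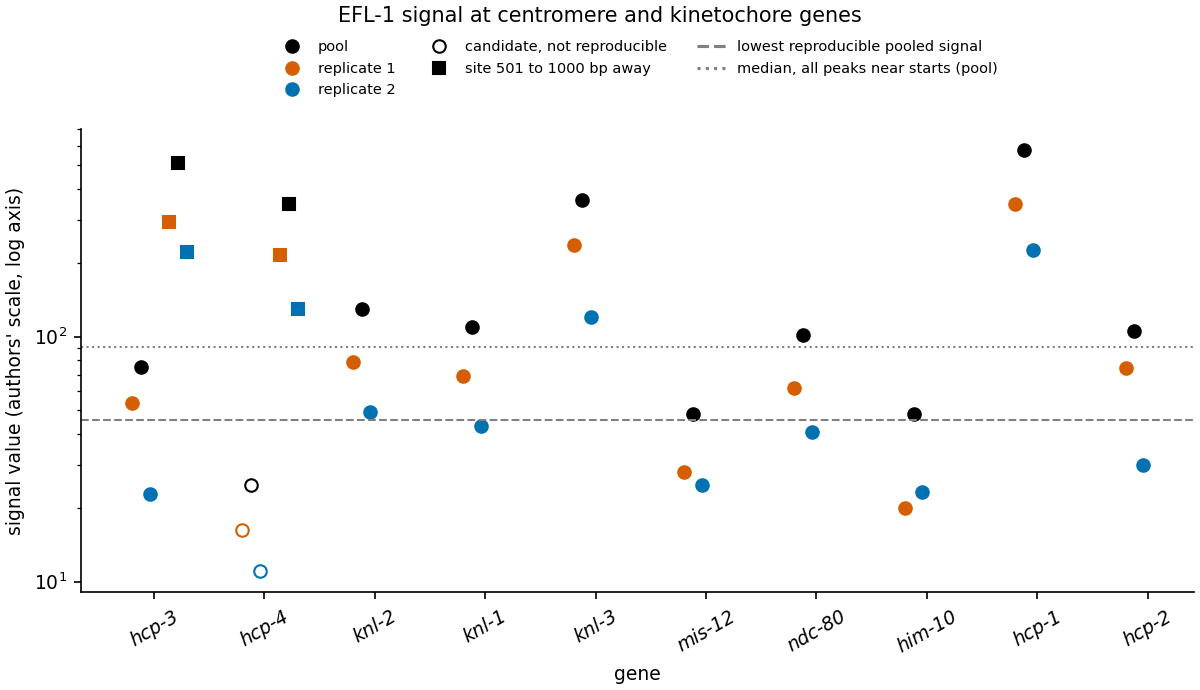
Signal value on the authors' scale (y axis, log) at each gene (x axis) in the pool, replicate 1 and replicate 2, with 1 point per list. Circles are sites within 500 bp of a start, squares are sites further out, up to 1000 bp away, and the open circles of hcp-4 lie below the dashed line at the lowest reproducible signal, 45.6.

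The scaffold gene of the KMN network, knl-1, had a peak of middle strength. KNL-1 binds the other KMN parts and recruits checkpoint proteins. Its gene lies on chromosome III from 8250632 to 8253943 on the plus strand, and its peak spanned 8250342 to 8250617 with the summit 152 bp upstream. The signal value was 109.9 pooled, and 68.8 and 43.1 in replicates 1 and 2. An upstream gene on the same strand, C02F5.2, ended 435 bp before knl-1, and the summit lay in the gap. The same arrangement was seen at hcp-1, where ZK1055.2 ended 450 bp before the gene and the summit lay in between. Before the other 8 genes the nearest upstream gene on the same strand ended further away: Y47G6A.25 at 663 bp from mis-12, ceh-10 at 2145 bp from him-10, W01B6.6 at 3513 bp from ndc-80 and clec-53 at 5536 bp from hcp-4. For the rest it was npp-12 at 6924 bp from knl-2, tbg-1 at 10066 bp from hcp-3, T06E4.5 at 13603 bp from hcp-2 and T10B5.7 at 21198 bp from knl-3.

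The MIS-12 complex, which links the KMN network to chromatin, was represented by genes near both ends of the signal range. KNL-3 is one of its subunits. The knl-3 gene is on the plus strand of chromosome V, at 1869213 to 1870558, and its peak spanned 1868690 to 1868896. The signal value was 362 pooled, and 237 and 121 in replicates 1 and 2, a rank of 70, 73 and 91. The summit was 411 bp upstream of knl-3, the greatest distance of the 9, but 231 bp from a start of T10B5.3 on the other strand, whose untranslated exon it fell in. Which of both genes the peak belongs to cannot be told from its position.

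The mis-12 gene itself lay close to the threshold. It is on chromosome I from 3604515 to 3605744 on the minus strand, and its peak spanned 3605648 to 3605923 with the summit 42 bp upstream. The signal value was 48.2 pooled, and 27.95 and 24.8 in replicates 1 and 2. Its rank was 2047 pooled, and 2410 and 1524 in replicates 1 and 2. The summit in replicate 1 lay 56 bp from that in the pool, the largest shift among the 9 peaks.

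The NDC-80 complex makes the direct contact with microtubules, and both of its listed genes were bound. The ndc-80 gene lies on chromosome IV from 10086137 to 10088437 on the plus strand, with a peak from 10085753 to 10086028 and the summit 246 bp upstream. Its signal value was 101.4 pooled, and 61.6 and 40.8 in replicates 1 and 2. The cuticle collagen gene col-2, on the other strand, also started within 500 bp of the summit, at 440 bp, so by the rule it shares the peak.

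The gene of its binding partner HIM-10, the worm Nuf2, had the weakest peak. It lies on chromosome III from 5803260 to 5805112 on the plus strand, and its peak spanned 5803008 to 5803283 with the summit 114 bp upstream. The signal value was 48.1 pooled, and 20.1 and 23.25 in replicates 1 and 2. Among all reproducible peaks matched in both replicates 10.85% had a higher value in replicate 2, and of the bound genes among the 10 only him-10 did. Its rank was 4132 in replicate 1 and 1681 in replicate 2. The summit lay 14 bp inside polq-1, which encodes DNA polymerase theta and starts on the other strand. The 8-letter E2F sequence TTTGGCGC was nonetheless present, 20.5 bp from the summit.

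The paralogs hcp-1 and hcp-2, whose CENP-F-like products bring the CLASP protein CLS-2 to kinetochores, differed in signal. The hcp-1 gene is on the plus strand of chromosome V, at 6594194 to 6599208. Its peak, from 6593790 to 6594016 with the summit 291 bp upstream, had a signal value of 576 pooled, and 349 and 225 in replicates 1 and 2. The peak at efl-1, whose copy number in these animals is unknown, had 439.6 pooled, and 313 and 125 in replicates 1 and 2. The hcp-1 peak ranked 14 pooled, and 18 and 13 in replicates 1 and 2, and 0.904% of all bound genes had a stronger peak. The hcp-2 gene is on the same chromosome at 9645859 to 9650211, also on the plus strand, with a peak from 9645555 to 9645830 and the summit 166 bp upstream. Its signal value was 105 pooled, and 74.2 and 29.95 in replicates 1 and 2, so in each list it was lower than that of hcp-1. The hcp-2 peak was shared with atl-1, the gene of the ATR checkpoint kinase, whose start on the other strand was nearer, at 98 bp. The sequence within 100 bp of its summit also had the lowest GC content of the 9, 30.3%, against a median of 40.3% over all reproducible peaks.

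**Figure D3:**
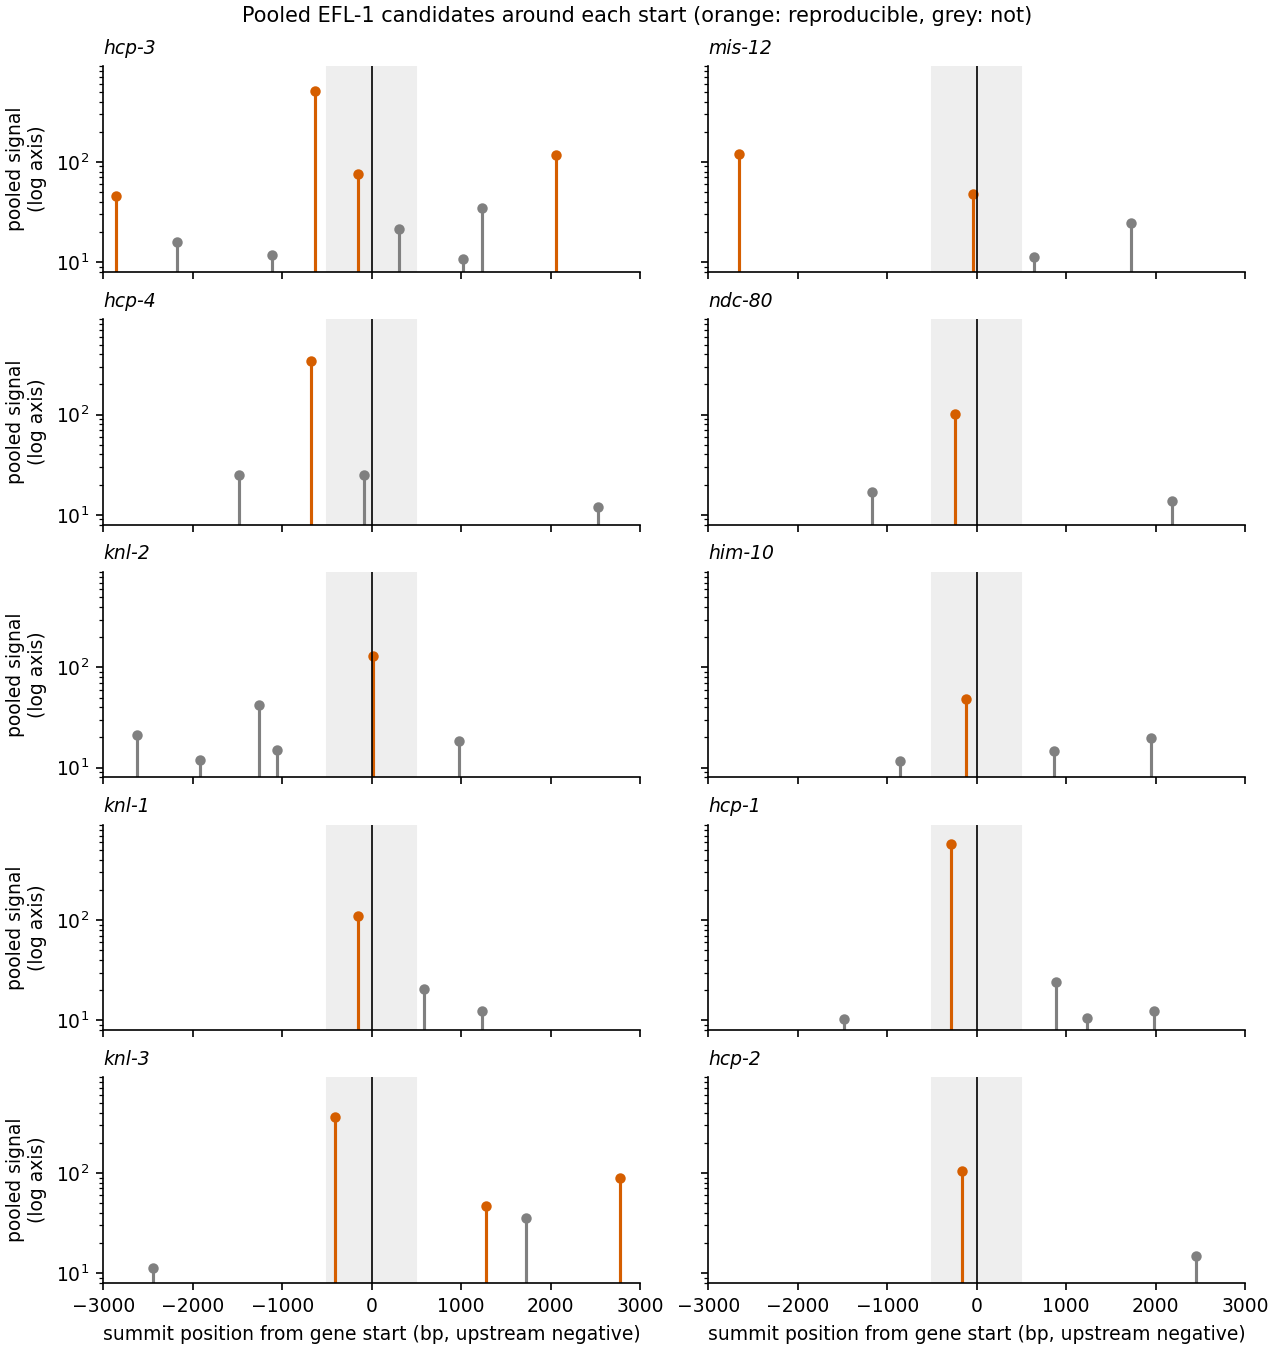
Pooled candidates around each gene start, with the summit position on the x axis (bp, upstream negative) and the pooled signal value on the y axis (log). Orange stems are reproducible peaks, grey stems are not, and the shaded band reaches 500 bp to each side, so the strongest stems of hcp-3 and hcp-4 stand outside it at 632 and 679 bp upstream.

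The peaks of these genes lay before or at the start, and other candidates inside each gene were weaker. Of 45 pooled candidates within 3000 bp of the 10 starts, 16 were reproducible. Candidates inside the genes were found at all 10. Apart from the start peak of knl-2, the highest of these was 47.2, at the 3′ end of knl-3 where it overlaps T10B5.4, and it was the only one that was reproducible. At 9 of the 10 genes the strongest candidate within 3000 bp lay within 1000 bp of the start. The exception was mis-12, with 119.9 at a site 2654 bp upstream and 53 bp from the start of Y47G6A.25. All 10 genes had a reproducible peak within 1000 bp, so this count was largely set beforehand. No share over all genes is given for the counts in this paragraph, so they are not read as traits of these genes.

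Both replicates held a candidate at each of the 9 peaks, as at 2147 of all 2179 nuclear reproducible peaks. The peaks come from a list thresholded for reproducibility, so the match adds no support. At the 9 peaks the summit of the candidate lay 0 to 56 bp from the pooled one in replicate 1 and 0 to 24 bp in replicate 2. Of the 9, 7 were among the 2179 strongest nuclear candidates of both replicates, against 69.4% of all nuclear reproducible peaks. The other 2 were him-10 and mis-12, which were among them in replicate 2 alone. Signal was higher in replicate 1 at 8 of the 9 peaks. Of the 2147 reproducible peaks matched in both replicates, 10.85% had a ratio of replicate 1 to replicate 2 under 1. At the 9 peaks the ratio was 0.864 to 2.48 with a median of 1.59, against a median of 1.70 over the 2147. The scale of the signal is unknown, so the ratio has no reading as occupancy.

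**Figure D4:**
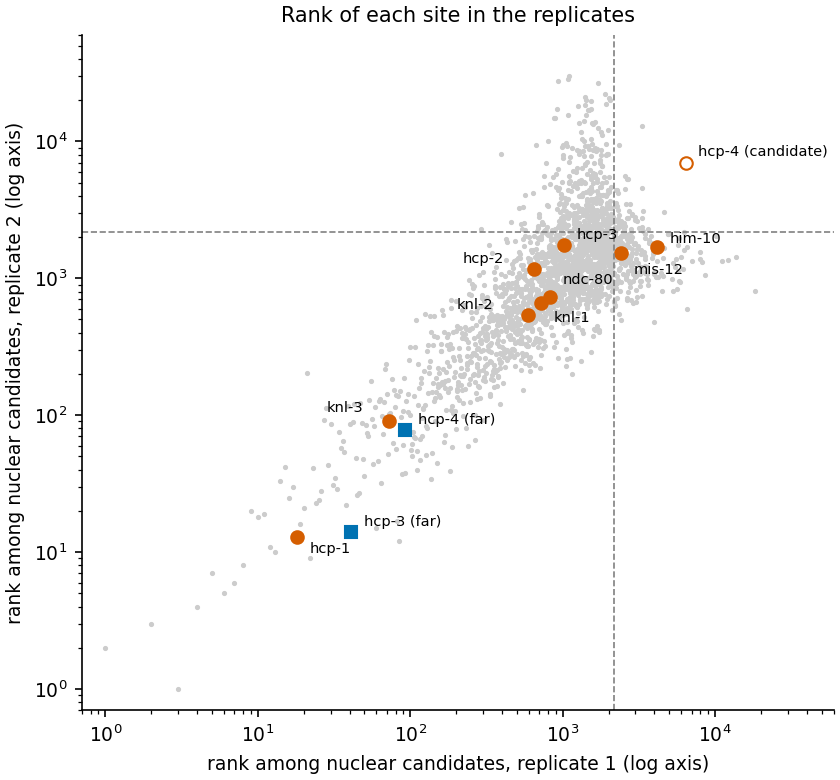
Rank of each site among nuclear candidates of replicate 1 (x axis, log) and replicate 2 (y axis, log), with all reproducible peaks matched in both replicates in grey and dashed lines at rank 2179. Sites of hcp-1, knl-3 and the far sites of hcp-3 and hcp-4 lie at ranks 13 to 93 in both, and him-10 and mis-12 lie beyond the line of replicate 1. The hcp-4 candidate within 500 bp of its start lies beyond both lines, at rank 6412 in replicate 1 and 6991 in replicate 2.

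The count of bound genes depended on how a peak was tied to a gene. With a distance of 200 bp 6 of the 10 genes were bound, against 4.73% of all genes, and hcp-1, knl-3 and ndc-80 dropped out because their summits lay further upstream. When a peak counted for the gene with the nearest start alone, 6 were bound, against 6.84%, and hcp-2, knl-3 and him-10 gave way to their neighbours. With the stronger 50% of the peaks 6 were bound, against 5.31%, and hcp-3, him-10 and mis-12 dropped out. The 2179 strongest candidates of replicate 1 alone gave 7, against 8.94% of all genes, and those of replicate 2 alone gave 9, against 8.27%. RefSeq starts gave 9, against 8.71%. A pooled candidate of any strength lay within 500 bp of all 10 starts, and near 38.0% of all protein-coding genes. Only knl-1 and knl-2 were bound under every one of these rules.

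The second CENP-A gene, cpar-1, was set beside hcp-3. This paralog of hcp-3 lies on chromosome III from 9434057 to 9435100 on the plus strand. Its highest candidate, with the summit 293 bp upstream, had a signal value of 44.5 pooled, and 15.1 and 24.8 in replicates 1 and 2, just below the lowest reproducible peak. Its rank was 2248 pooled, 7509 in replicate 1 and 1519 in replicate 2, so that the 2179 strongest candidates of replicate 2 alone called cpar-1 bound. This is 1 value per list against 513, 293 and 221 at the far site of hcp-3. The upstream sequences of both genes were aligned after these values had been seen. A stretch next to the starts, ending 3 bp upstream of both, was 91.1% identical over 135 aligned columns. A further stretch, from 744 to 551 bp upstream of hcp-3 and from 333 to 152 bp upstream of cpar-1, was 80.1% identical over 196 columns. It contained the summit of the strong hcp-3 peak and that of the cpar-1 candidate, at positions that are not aligned with each other. It is printed because both summits lie in it, with capitals for letters that differ or have no counterpart.
hcp-3 (chrIII:9617021-9617214, minus strand): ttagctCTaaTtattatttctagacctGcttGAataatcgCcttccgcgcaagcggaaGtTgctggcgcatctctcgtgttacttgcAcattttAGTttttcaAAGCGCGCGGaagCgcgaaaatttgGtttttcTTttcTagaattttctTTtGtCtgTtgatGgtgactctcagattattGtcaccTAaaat
cpar-1 (chrIII:9433724-9433905, plus strand): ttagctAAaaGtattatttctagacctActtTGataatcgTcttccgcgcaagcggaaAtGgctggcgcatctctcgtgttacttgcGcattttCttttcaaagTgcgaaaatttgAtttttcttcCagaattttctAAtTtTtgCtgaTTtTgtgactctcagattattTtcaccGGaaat
The 8-letter E2F sequence of hcp-3, which reads GCGCGAAA here, was aligned with GTGCGAAA in cpar-1. The hcp-3 summit lay 6.5 bp from the centre of that sequence, whereas the cpar-1 summit lay more than 50 bp from the aligned letters. Within 1500 bp upstream, hcp-3 held 1 match to the E2F sequence, in its long and short forms, and cpar-1 held 0 of either, while each held 8 CHR sequences. The treatment of reads that fit both copies is unknown, and the part of the sequence difference in the signal difference was not tested.

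Genes that work with these proteins were examined in the same way. Of a list of 22 other kinetochore genes 15 had a reproducible peak within 500 bp, against 8.86% of all genes, with a median signal value of 137.4 and a range of 65.6 to 476. The shorter E2F sequence was at 12 of the 15 peaks, the longer one at 6 and the CHR sequence at 14. Of the 1386 reproducible peaks near starts, 481, 264 and 856 held these sequences in turn. The CHR sequence was also in 53.6% of candidates outside the reproducible peaks, so it is frequent in any case. Counted with the 4 small subunits kbp-1, kbp-2, kbp-3 and kbp-4, 8 of 9 KMN genes were bound. Of these small subunits kbp-4 had the strongest peak, 476, shared with the Rab GTPase gene rab-18, followed by kbp-3 with 124 and kbp-1 with 79.8, shared with cra-1. The gap was kbp-2, which had no pooled candidate within 500 bp and lies 113 bp behind F26F4.8 on the same strand. A further KNL-binding protein gene, kbp-5, had 77.6 and shared its peak with ndua-13.

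All 5 checkpoint genes on the list were bound, against 8.86% of all nuclear protein-coding genes. The spindle checkpoint delays anaphase until every kinetochore is attached. Signal values were 246 at bub-3, 186 at mdf-2, 165 at mdf-1, 148 at bub-1 and 65.6 at san-1. All of these peaks but that of mdf-1 were shared with another gene. Among the RZZ complex and its partner Spindly, which bring dynein to kinetochores, czw-1 had 137.4 and spdl-1 had 116. The strong peaks next to rod-1 and zwl-1 lay 545 and 574 bp upstream, with 299 and 212, so neither gene was bound by the 500 bp rule, and the zwl-1 peak was nearer to dot-1.1.

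Of the remaining genes on the list, lin-53, a histone chaperone gene, had 468, the condensin gene hcp-6 had 264, the chromokinesin gene klp-19 had 131 and ska-1 had 82.7. The microtubule depolymerase gene klp-7 had a peak of 355 within an intron, 931 bp from a start. For cls-2 the highest candidate within 500 bp was 14.4 and for mel-28 it was 23.1. Of the 15 peaks 13 were shared with another gene, against 4 of the 9 at the centromere and KMN genes and 29.6% of all peaks near starts. No test of these differences was made.

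**Figure D5:**
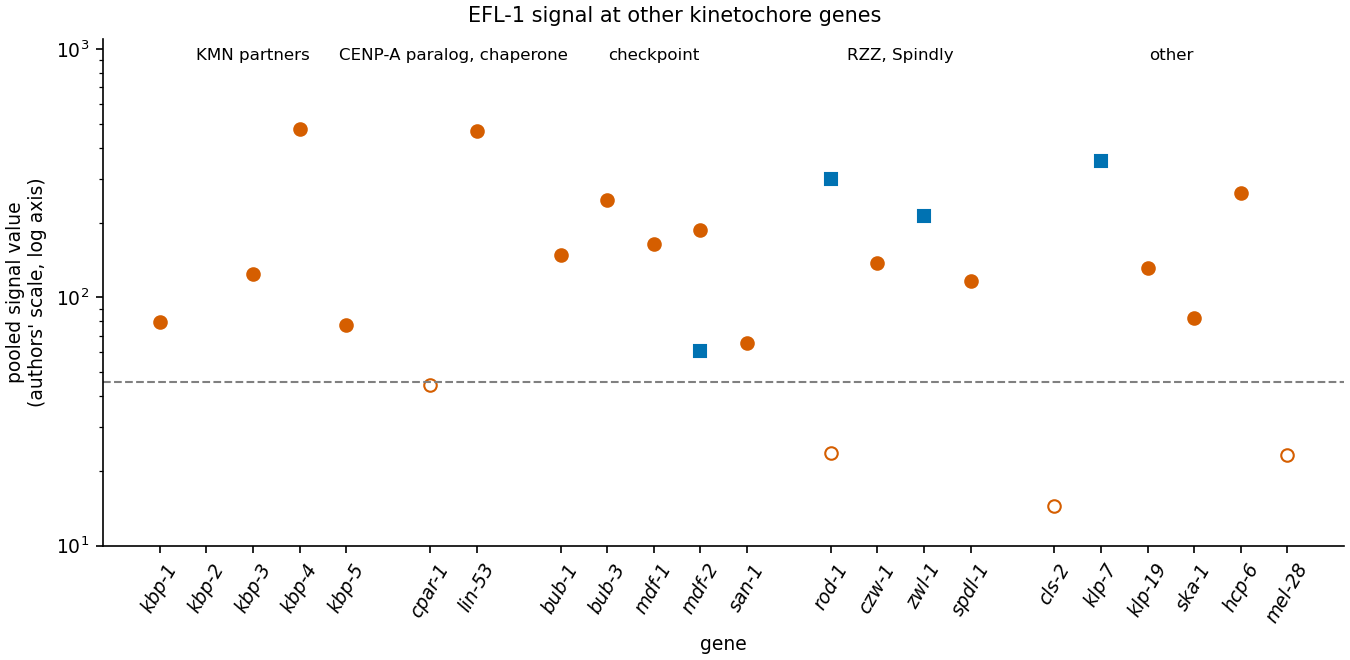
Pooled signal value (y axis, log) at 22 other kinetochore genes, grouped by role (x axis). Orange circles are sites within 500 bp of a start, blue squares are reproducible peaks further out, up to 1000 bp away, open circles are candidates below the dashed line at 45.6, and kbp-2 has no point because no pooled candidate lay within 500 bp.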

How the data were processed

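The authors deposited peak lists from chromatin immunoprecipitation on builds ce10 and ce11, and those on ce11 were used. Per the file headers in the deposited descriptions, 30000 candidate peaks with background were listed for each replicate and for the pool, and the optimal list was derived from them. The deposited signal value of each peak served to rank peaks, within 1 list at a time, and to describe them. The values of both replicates were also compared as a ratio, although their scale is unknown. Aligner, peak caller, threshold and treatment of multiply mapping reads: not given in the sources used here. Control libraries were not analysed here.

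Summits were compared with Ensembl release 115 starts on WBcel235, the same assembly as ce11. The 28 mitochondrial peaks were left out, which left 2179. Replicate candidates were matched by an overlap of at least 1 bp, taking the strongest. Upstream sequences were aligned locally with Biopython 1.88. Coordinates count from base 1. No test or p-value was computed: the files give 1 group without read counts.

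The members and lists were chosen with earlier results of these data known. Named are all 10 genes, genes that share their peaks, the nearest upstream neighbours on the same strand, genes of the list of 22 other kinetochore genes, which holds cpar-1, and efl-1. Some neighbours of the 22 genes are named as well, and so are F58A4.6, hlh-11 and T10B5.4, which lie near other peaks within 3000 bp. The spacing of matches, the sites beyond 500 bp and the alignment were examined after the values had been seen. Alternatives were distances of 200 and 1000 bp, the stronger 50% of peaks, the nearest start alone, each replicate alone, other windows and overlaps and RefSeq starts. Distances, overlaps and matches were checked on simulated data. Computation used Python 3.11.15, numpy 2.4.6, pandas 2.3.3 and matplotlib 3.10.9.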

Additional observations from a re-analysis of the deposited data

How the results depend on the processing

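The number of bound genes among the 10 was 9 by the main rule, 6 with a distance of 200 bp, 10 with 1000 bp, 6 with the stronger 50% of the peaks, 6 with the nearest start alone and 9 with RefSeq starts. Each replicate alone gave 7 to 9 bound genes, and without replicate 2 him-10 and mis-12 were lost. Of the list of 22, replicate 1 alone gave 16 bound genes, against 8.94% of all genes, and replicate 2 alone gave 15, against 8.27%. A distance of 200 bp gave 11, against 4.73%, and the nearest start alone gave 11, against 6.84%. The stronger 50% of the peaks gave 12, against 5.31%, and a distance of 1000 bp gave 18, against 11.3%. With replicate 2 alone cpar-1 was among the bound genes. The median signal was 90.3 at 200 bp and 120 at 1000 bp, and 40.8 to 74.2 on the scales of the single replicates. The E2F sequence was at 5 of the 9 peaks with windows of 50 and 250 bp. It was at 7 of 10 when each gene was given its strongest reproducible peak within 1000 bp, a choice made after the values had been seen. No share over all genes is given for that choice. Shares over all peaks are given for windows of 100 bp alone. No paired analysis was possible because there was 1 group. Depth is unknown, so no error of a single signal value can be given beyond the values of both replicates.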

Other observations

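Several reproducible peaks near these genes lay closer to the start of a neighbour. The reproducible peak 2055 bp downstream of the hcp-3 start, with a pooled signal value of 116, lay 67 bp from the start of F58A4.6. That 2857 bp upstream, with 45.7, lay 384 bp from the start of hlh-11 and was close to the lowest reproducible signal, 45.6. Downstream of knl-3, a peak of 89.96 lay 178 bp from a start of T10B5.4, and the 47.2 peak at the 3′ end of knl-3 lay 217 bp from a start of that gene. At hcp-1, hcp-2, hcp-4, knl-1, knl-2, ndc-80 and him-10, the site before or at the start was the only reproducible peak within 3000 bp.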
